A study of Mus musculus with 12 samples.

Results

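The expression of 10 transcription factors of the T lineage was followed from normal mouse thymocytes to T-cell lymphomas with and without the DNA methyltransferase Dnmt3a. The members are Gata3, Bcl11b, Lef1, Tox, Runx1, Runx3, Ets1, Ikzf1, Ikzf3 and Tcf12. They were listed by name and are 10 of the 19309 genes that could be tested. In the RefSeq annotation of GRCm38.p6 the genes lie at chr2:9857078-9887953 (Gata3), chr12:107910403-108004145 (Bcl11b), chr3:131110297-131224357 (Lef1), chr4:6686353-6991557 (Tox) and chr9:32636241-32757820 (Ets1). Runx1 lies at chr16:92601466-92826074, Runx3 at chr4:135120645-135177990, Ikzf1 at chr11:11684962-11772930, Ikzf3 at chr11:98464610-98546031 and Tcf12 at chr9:71844252-72111893. Each had 1 probe set that carries its symbol alone, so no choice between probe sets was needed and no member was skipped. Values are log2 array signals, so a difference of 1 is a 2-fold change in signal. The level of one gene's probe set cannot be set against that of another gene, and every comparison runs within a gene.

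Thymus RNA came from mice of FVB/N background and was measured on 12 arrays. The 3 normal samples were non-tumor thymocytes of wild type animals at 24 days after birth. The 5 control tumors were labelled as wild type for genotype and the 4 deficient tumors as Dnmt3a-deficient, and both were taken at the terminal stage, with no age in days. The lymphomas of both groups arose in the presence of MYC, and in the deficient group Dnmt3a had been removed from the blood-forming cells. The labels do not say how MYC was expressed, which promoter or recombinase was used for the deletion, or whether samples were pooled. They also do not say that samples of a group came from separate animals, so a p-value measures the spread between these samples, which may be technical. Normal samples differ from tumors in MYC, transformation and age, and these cannot be told apart.

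These factors build and hold the identity of a T cell. E proteins such as the product of Tcf12, together with Notch signals, open the program in progenitors that reach the thymus. Gata3 and the HMG box factors follow, Bcl11b closes the path to other blood lineages, and Lef1, Tox, the Runx factors, Ets1 and the Ikaros family guide the passage through the CD4 and CD8 stages. Several of them are tumor suppressors of the T lineage as well, among them Bcl11b, Ikzf1, Gata3 and Lef1, which are recurrently mutated or deleted in human T-cell leukemia.

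The deleted enzyme adds methyl groups to cytosines that precede a guanine (CpG), and the start regions of Gata3 and Lef1 are printed because these members had the largest differences between the tumor groups. Each window runs from 250 bases before to 50 bases after a transcription start of RefSeq on GRCm38.p6, written 5′ to 3′ on the gene's strand, and capitals mark every CpG. The Gata3 window is chr2:9878551-9878850 on the minus strand, and the Lef1 window is chr3:131110047-131110346 on the plus strand, the first of 4 starts listed for that gene.
Gata3: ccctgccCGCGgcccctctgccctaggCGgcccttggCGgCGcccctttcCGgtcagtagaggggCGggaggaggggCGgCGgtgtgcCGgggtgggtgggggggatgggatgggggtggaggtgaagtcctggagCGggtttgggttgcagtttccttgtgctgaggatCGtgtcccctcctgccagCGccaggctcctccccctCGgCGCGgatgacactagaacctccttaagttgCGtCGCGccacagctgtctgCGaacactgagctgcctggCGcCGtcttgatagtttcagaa
Lef1: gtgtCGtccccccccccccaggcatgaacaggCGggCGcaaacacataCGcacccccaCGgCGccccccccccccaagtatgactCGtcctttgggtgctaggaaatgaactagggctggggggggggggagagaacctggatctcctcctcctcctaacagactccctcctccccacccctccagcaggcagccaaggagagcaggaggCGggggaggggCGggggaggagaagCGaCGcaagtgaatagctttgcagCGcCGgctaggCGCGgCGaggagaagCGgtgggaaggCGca
The Gata3 window holds 22 CpG and the Lef1 window 18, against a median of 7 over 32851 windows of the same length. Among all windows, 21.5% hold more CpG than that of Gata3 and 28.1% more than that of Lef1. The table held 15 windows for 7 of the members, of which 11 lay above the median. Ets1, Ikzf3 and Tox had no window in it. Methylation itself was not measured on these arrays.

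Runx1 and Runx3 encode related DNA-binding proteins and are each read from a distal and a proximal start. Their distal windows are printed because the 2 genes share a motif arrangement there, while their levels over the tumors followed different patterns. Capitals mark the core letters bound by Runx proteins, TGTGGT, searched on both strands, which read ACCACA where the motif lies on the other strand. The windows are chr16:92826025-92826324 on the minus strand for Runx1 and chr4:135120395-135120694 on the plus strand for Runx3.
Runx1: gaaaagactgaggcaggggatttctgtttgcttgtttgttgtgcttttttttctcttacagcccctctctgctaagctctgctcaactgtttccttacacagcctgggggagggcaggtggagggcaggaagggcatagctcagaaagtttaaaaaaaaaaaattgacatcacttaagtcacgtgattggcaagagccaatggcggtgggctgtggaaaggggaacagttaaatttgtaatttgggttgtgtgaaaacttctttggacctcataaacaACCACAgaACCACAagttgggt
Runx3: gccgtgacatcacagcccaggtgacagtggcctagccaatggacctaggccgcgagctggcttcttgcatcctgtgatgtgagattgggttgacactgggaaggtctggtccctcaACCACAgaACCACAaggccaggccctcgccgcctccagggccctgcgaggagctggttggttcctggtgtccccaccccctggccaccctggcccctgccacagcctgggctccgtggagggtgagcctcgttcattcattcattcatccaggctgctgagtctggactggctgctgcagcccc
Each distal window holds the motif 2 times, in the same 18-base stretch, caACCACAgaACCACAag. The stretch was found in 4 of the 32851 windows: these 2, that of Runx2, the remaining gene of the family, and that of Gm16225, which overlaps the Runx3 window on the opposite strand. At least 1 copy of TGTGGT was found in 16.8% of all windows and 2 or more copies in 1.81%. In the 15 member windows it appeared in these 2 and in no other. The match is a description of letters and not a binding site. Over the 9 tumors the levels of Runx1 and Runx3 had a correlation of r = -0.02, given as a description, since all tumors share the array platform.

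The arrays fell into sets that bear on the results. Array medians lay between 6.40 and 6.58, while the 75th percentile took 2 levels: 8.13 to 8.30 in normal samples and control tumors 3, 4 and 5, and 8.50 to 8.60 in control tumors 1 and 2 and every deficient tumor. No label gives a batch, a scan date or another reason, and member calls that change when control tumors of 1 level are left out are given beside the gene. In deficient tumors against normal thymocytes the groups lie wholly at different levels. There the array level cannot be told apart from the other differences between the groups. Dnmt3a itself read 9.33 to 9.63 in normal samples, 8.18 to 9.57 in control tumors and 7.19 to 7.62 in deficient tumors, so the deleted gene was lowest in the 4 deficient tumors. The probe set of Myc read 9.43 to 9.86 in normal samples, 5.99 to 7.49 in control tumors and 6.16 to 6.78 in deficient tumors, and the labels do not say whether it detects the MYC that drives the tumors. The mean of 10 T cell markers, such as Cd3e and Cd3d, was 10.74 to 10.86 in normal samples, 9.71 to 10.23 in control tumors and 9.46 to 10.10 in deficient tumors, so T cell RNA was present on every array. In bulk RNA, fewer cells of a type and less RNA per cell cannot be told apart.

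Most calls among the members were decreases from normal thymocytes to tumors. In control tumors Gata3, Bcl11b, Ets1 and Lef1 fell and Ikzf3 rose, although the rise of Ikzf3 was not called after a second quantile normalization or cyclic loess. In deficient tumors Gata3, Bcl11b, Ets1, Lef1 and Tox fell and Ikzf3 rose, with Bcl11b not called after median centring (adjusted p = 0.055) and Ikzf3 not called after the same 2 scalings. Between the tumor groups Gata3 was lower in deficient tumors and no other member passed the test. A member was called at an adjusted p under 0.05 in limma, with the Benjamini-Hochberg method over all 19309 genes.

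Read against all genes, 4 of 10 members were called lower in control tumors than in normal thymocytes, where 11.3% of all genes were, and 1 was called higher, where 13.0% were. In deficient tumors 5 of 10 members were called lower, against 19.0% of all genes, and 1 was called higher, against 18.7%. Between the tumor groups 1 of 10 members was called lower in deficient tumors, against 0.228% of all genes, and 0 were called higher, against 0.590%. Before adjustment the limma p between the tumor groups was 3.57e-05 for Gata3 and 0.00112 for Lef1, both lower in deficient tumors. The median difference of the members was -0.63 in control tumors, -0.51 in deficient tumors and -0.15 between the tumor groups, and that of all genes was -0.08, -0.10 and -0.01. Both tumor comparisons use the same 3 normal samples and are not independent of each other. Scaling moved the split of calls over all genes in some comparisons: median centring gave 3922 higher and 2571 lower genes in deficient tumors against normal in place of 3602 and 3660. In deficient against control tumors 114 genes were higher and 44 lower, which became 331 and 47 with median centring, 66 and 45 with quantile normalization repeated, and 93 and 64 with cyclic loess.

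**Figure D1:**
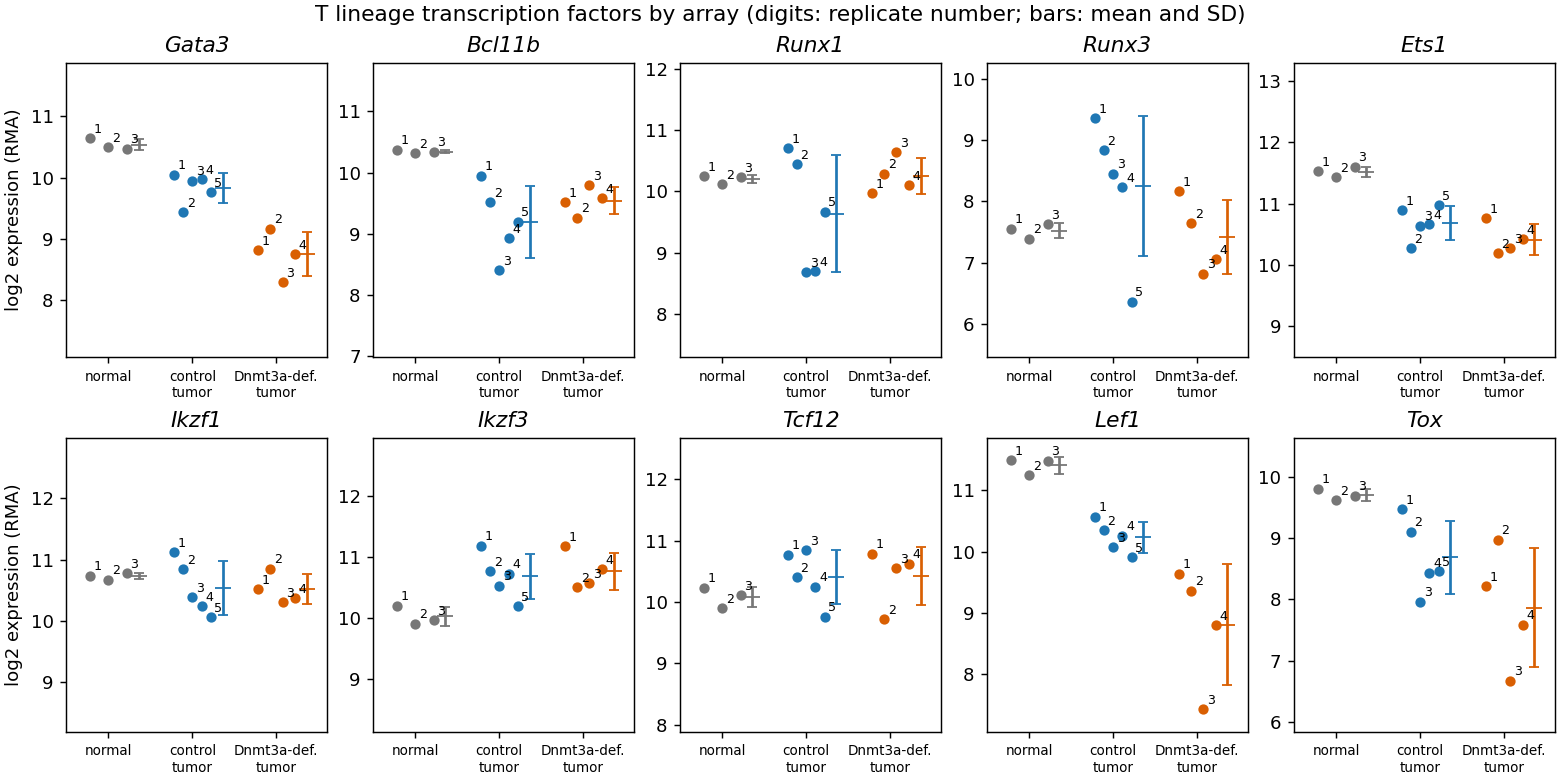
Level of each member on every array, as log2 signal, with 1 panel per gene. Digits give the replicate number, and bars the mean and SD of the 3 normal samples, 5 control tumors and 4 deficient tumors. Every panel spans the same number of log2 units. Gata3 forms 3 separate levels, and Runx1 and Runx3 are widely spread among the control tumors.

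Gata3, the zinc finger factor needed from the earliest thymic stage and for CD4 T cells, fell in steps from normal thymocytes to control tumors to deficient tumors. It read 10.65, 10.50 and 10.47 in the normal samples, 10.05, 9.43, 9.95, 9.98 and 9.76 in control tumors 1 to 5, and 8.81, 9.16, 8.29 and 8.75 in deficient tumors 1 to 4. No value of one group reached into another: every control tumor lay below every normal sample, and the deficient tumors lay below all control tumors. The means were 10.54 ± 0.10 (SD, n = 3), 9.83 ± 0.25 (n = 5) and 8.76 ± 0.36 (n = 4). The control tumors were 1.63-fold lower than normal thymocytes (log2 difference -0.70, SE 0.19, adjusted p = 0.0164) and the deficient tumors 3.44-fold lower (-1.78, SE 0.20, adjusted p = 2.31e-05). The call in control tumors ended without normal sample 1 (adjusted p = 0.0681).

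The direct comparison of tumors put Gata3 2.11-fold lower without Dnmt3a (difference -1.08, 95% interval -1.46 to -0.70, adjusted p = 0.0197). An exact two-sided permutation test over the 126 splits of the 9 tumors gave p = 0.00794, the smallest that this design allows. The call depended on single tumors, while the direction was the same in all 23 alternatives. The adjusted p was 0.0578, 0.0603, 0.0601 and 0.0744 without control tumor 3, control tumor 4, deficient tumor 3 or deficient tumor 4. It was 0.132 (difference -0.99) when the deficient tumors were set against control tumors 1 and 2, which share their 75th percentile, and 0.000951 (-1.14) when those 2 were left out. In the latter fit the tumor groups also differ in their 75th percentile, so the loss of Dnmt3a and the array level cannot be told apart. Of all genes 9.24% were then lower and 16.1% higher, against 0.228% and 0.590% with every control tumor. In 2.0% of all genes the absolute difference between the tumor groups was larger than that of Gata3.

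Bcl11b, the zinc finger factor that seals commitment to the T lineage, was lower in both tumor groups. It read 10.37, 10.32 and 10.34 in normal samples, 9.95, 9.52, 8.40, 8.93 and 9.20 in control tumors 1 to 5, and 9.52, 9.26, 9.80 and 9.58 in deficient tumors 1 to 4. All 9 tumors lay below all normal samples, and the tumor groups overlapped, with control tumors 3, 4 and 5 at the bottom. Control tumors were 2.21-fold lower than normal (difference -1.15, SE 0.27, adjusted p = 0.00681), and differed by -0.61 (adjusted p = 0.0268) without control tumors 3, 4 and 5. Deficient tumors were 1.75-fold lower (-0.80, SE 0.28, adjusted p = 0.0379), a call that median centring (adjusted p = 0.055) ended, as did leaving out any normal sample or deficient tumor 1, 2 or 4 (up to 0.09). The tumor groups differed in Bcl11b by 0.34 (95% interval -0.19 to 0.87, adjusted p = 0.451).

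Lef1, the HMG box partner of beta-catenin that carries thymocytes through the stage that bears both CD4 and CD8, showed the largest drop of the 10. It read 11.49, 11.25 and 11.48 in normal samples, 10.57, 10.36, 10.07, 10.27 and 9.91 in control tumors 1 to 5, and 9.64, 9.36, 7.43 and 8.80 in deficient tumors 1 to 4. As with Gata3, the 3 groups did not overlap, and deficient tumor 3 stood well below the other deficient tumors. The deficient tumors were 6.06-fold below normal thymocytes (difference -2.60, SE 0.39, adjusted p = 0.000211), and 1.3% of all genes differed more. The control tumors were 2.25-fold below (-1.17, SE 0.37, adjusted p = 0.0363). That call ended without any 1 of the normal samples or of control tumors 3, 4 and 5, with adjusted p up to 0.104, and without these 3 control tumors together (-0.94, adjusted p = 0.173).

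Between the tumor groups the Lef1 difference was larger than that of Gata3 but so was its spread. Deficient tumors were 2.69-fold lower than control tumors (difference -1.43, 95% interval -2.17 to -0.68, adjusted p = 0.075), which did not pass the test. All 4 deficient tumors lay below all 5 control tumors, with an exact two-sided permutation p = 0.00794. The SD was 0.98 in deficient and 0.26 in control tumors, and 1.1% of all genes had a larger SD among the deficient tumors. The adjusted p came under 0.05 with array weights (0.0196), without control tumor 2 (0.0414), without deficient tumor 1 (0.0491) and without control tumors 1 and 2 together (0.0355).

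Tox, the HMG box factor needed for CD4 lineage cells in the thymus, followed Lef1 in its order of groups. It read 9.80, 9.62 and 9.69 in normal samples, 9.47, 9.11, 7.96, 8.44 and 8.46 in control tumors 1 to 5, and 8.21, 8.97, 6.68 and 7.59 in deficient tumors 1 to 4. All tumors were below all normal samples, while deficient tumors 1 and 2 lay among the control tumors. Deficient tumors were 3.58-fold lower than normal (difference -1.84, SE 0.45, adjusted p = 0.00605). Control tumors were 2.02-fold lower (-1.02, SE 0.43), which at adjusted p = 0.106 did not pass, although it did after a second quantile normalization (0.0492), with the 2 groups fitted alone (0.0396) and without control tumors 1 and 2 (0.0291). The tumor groups differed by -0.82 (95% interval -1.68 to 0.02, adjusted p = 0.259, exact permutation p = 0.167).

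**Figure D2:**
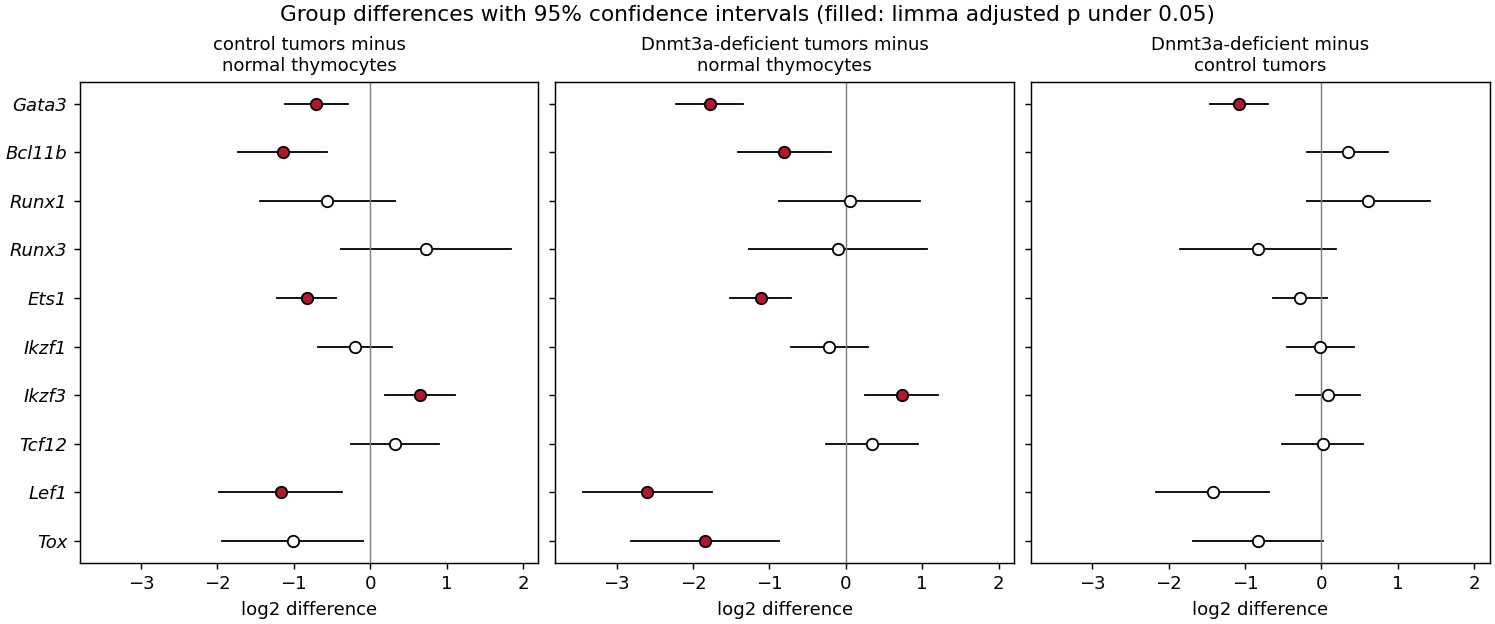
Difference of each member in the 3 comparisons, on the log2 scale, as points with bars for the 95% interval of limma; filled points were called at an adjusted p under 0.05. Lef1, Gata3 and Tox lie furthest below 0 in deficient tumors against normal thymocytes, and Gata3 is the member called between the tumor groups.

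Runx1, which acts from the first thymic stages onward, did not separate the groups but split the control tumors. It read 10.25, 10.12 and 10.23 in normal samples, 10.71, 10.44, 8.68, 8.70 and 9.67 in control tumors 1 to 5, and 9.97, 10.29, 10.64 and 10.11 in deficient tumors 1 to 4. Control tumors 1 and 2 lay above every normal sample, control tumors 3, 4 and 5 below every one, and all deficient tumors lay between control tumors 5 and 1. The control tumors thus spanned 4.08-fold, with an SD of 0.95 that 2.8% of all genes exceeded. The group differences were -0.56 in control tumors (SE 0.41, adjusted p = 0.356), 0.05 in deficient tumors (SE 0.43, adjusted p = 0.94) and 0.61 between the tumor groups (95% interval -0.20 to 1.42, adjusted p = 0.368). The sign of the second turned after a second quantile normalization or cyclic loess.

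The lowest levels of both Runx1 and Bcl11b coincided with other differences between the control tumors. The mean of 11 neutrophil markers was 8.23 and 8.04 in control tumors 3 and 4, against 5.69 to 6.09 in the other control tumors, 6.50 to 6.96 in normal samples and 5.42 to 6.12 in deficient tumors. These 2 tumors had the 2 lowest levels of Runx1 and of Bcl11b. Lmo2, a progenitor factor that is normally silenced as T cells commit, was highest in the same tumors, at 10.58 and 10.61, and read 9.13 in control tumor 5 and 7.97 and 8.18 in control tumors 1 and 2. The part of neutrophil RNA in the Runx1 and Bcl11b values was not tested. Control tumor 2 stood apart in another way, with a mean of 8 adipocyte markers of 8.24 against 5.53 to 5.63 in the other control tumors, and it was neither the highest nor the lowest of the 9 tumors for any member.

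Leaving out control tumors 1 and 2, an alternative added after the values were seen because their 75th percentile is that of the deficient tumors, changed several calls. Control tumors 3, 4 and 5 then had 7 members lower than normal thymocytes, where 12.5% of all genes were, and 0 higher, where 12.9% were. The members were Gata3, Bcl11b, Runx1, Ets1, Ikzf1, Lef1 and Tox. Against these 3 control tumors the deficient tumors had Gata3 and Lef1 lower (9.24% of all genes were lower) and Bcl11b and Runx1 higher (16.1% were higher). These 2 sets of tumors also differ in their 75th percentile, which cannot be told apart from the loss of Dnmt3a. Runx1 then differed from normal by -1.19 (adjusted p = 0.00428) in control tumors. Between the tumor groups the Runx1 difference was 1.24 (adjusted p = 0.00287) and that of Bcl11b 0.70 (adjusted p = 0.0173). Against control tumors 1 and 2 alone the same differences were -0.32 (adjusted p = 0.626) and -0.19 (adjusted p = 0.799), so the sign of both depends on which control tumors are used.

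Runx3, which silences Cd4 in the CD8 branch, had the widest spread of the 10 among the control tumors. It read 7.55, 7.39 and 7.62 in normal samples, 9.35, 8.84, 8.45, 8.23 and 6.36 in control tumors 1 to 5, and 8.16, 7.64, 6.82 and 7.06 in deficient tumors 1 to 4. Control tumors 1 to 4 lay above all normal samples and control tumor 5 below all of them, a span of 7.96-fold with an SD of 1.14 that 1.5% of all genes exceeded. The mean difference was 0.73 in control tumors (SE 0.51, adjusted p = 0.344), -0.10 in deficient tumors (SE 0.54, adjusted p = 0.904) and -0.83 between the tumor groups (95% interval -1.85 to 0.20, adjusted p = 0.338). Without control tumor 5 the control tumors were above normal thymocytes by 1.20 (adjusted p = 0.0144). The difference was 1.57 (adjusted p = 0.00476) with control tumors 1 and 2 alone and 0.16 (adjusted p = 0.852) with control tumors 3, 4 and 5.

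Ets1, the winged helix factor that supports T cell receptor gene expression, fell in both tumor groups. It read 11.53, 11.43 and 11.60 in normal samples, 10.90, 10.27, 10.64, 10.66 and 10.97 in control tumors 1 to 5, and 10.76, 10.19, 10.27 and 10.42 in deficient tumors 1 to 4. All tumors lay below all normal samples, and deficient tumor 2 was the sole deficient tumor below every control tumor. Control tumors were 1.78-fold lower than normal (difference -0.83, SE 0.18, adjusted p = 0.00368) and deficient tumors 2.16-fold lower (-1.11, SE 0.18, adjusted p = 0.000444). Both calls held under all 23 alternatives. Deficient tumors differed from control tumors in Ets1 by -0.28 (95% interval -0.63 to 0.07, adjusted p = 0.342).

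The Ikaros family gave 2 unlike members. Ikzf1, the founding Ikaros factor and a brake on thymocyte growth, read 10.74, 10.68 and 10.78 in normal samples, 11.12, 10.84, 10.39, 10.24 and 10.06 in control tumors 1 to 5, and 10.52, 10.86, 10.30 and 10.38 in deficient tumors 1 to 4. Control tumors 1 and 2 and deficient tumor 2 lay above the normal range and the other 6 tumors below it, so no group stood apart. Its differences were -0.20 in control tumors (SE 0.22, adjusted p = 0.563), -0.22 in deficient tumors (SE 0.23, adjusted p = 0.495) and -0.02 between the tumor groups (95% interval -0.46 to 0.42, adjusted p = 0.974), the last of which turned sign after median centring. Against normal thymocytes it was at -0.50 (adjusted p = 0.0409) in control tumors 3, 4 and 5 and at 0.25 (adjusted p = 0.314) in control tumors 1 and 2.

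Ikzf3, or Aiolos, the relative that appears later in lymphocyte development, was the one member called higher in tumors. It read 10.21, 9.91 and 9.97 in normal samples, 11.18, 10.77, 10.53, 10.73 and 10.19 in control tumors 1 to 5, and 11.18, 10.50, 10.57 and 10.80 in deficient tumors 1 to 4. Every deficient tumor lay above every normal sample, and so did every control tumor except control tumor 5. Deficient tumors were 1.66-fold higher than normal (difference 0.73, SE 0.22, adjusted p = 0.0197) and control tumors 1.57-fold higher (0.65, SE 0.21, adjusted p = 0.0396), but neither passed after a second quantile normalization (adjusted p = 0.064 and 0.0605) or cyclic loess (0.153 and 0.121). The call ended also without normal sample 2 or 3 or deficient tumor 1 in deficient tumors, and in control tumors without any 1 of the normal samples, control tumors 1, 2 and 4 or deficient tumor 4 (adjusted p up to 0.142). Without control tumors 1 and 2 together the difference in control tumors was 0.45 (adjusted p = 0.124). Deficient and control tumors differed in Ikzf3 by 0.08 (95% interval -0.34 to 0.50, adjusted p = 0.842).

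Tcf12, which encodes the E protein HEB, was not called in any comparison. It read 10.23, 9.90 and 10.11 in normal samples, 10.77, 10.40, 10.84, 10.25 and 9.76 in control tumors 1 to 5, and 10.79, 9.72, 10.55 and 10.62 in deficient tumors 1 to 4. Control tumor 5 and deficient tumor 2 lay below all normal samples and the other 7 tumors above them. The differences were 0.32 in control tumors (95% interval -0.25 to 0.90, adjusted p = 0.421), 0.34 in deficient tumors (-0.26 to 0.94, adjusted p = 0.365) and 0.01 between the tumor groups (-0.52 to 0.55, adjusted p = 0.981), the last of which turned sign after a second quantile normalization or cyclic loess.

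**Figure D3:**
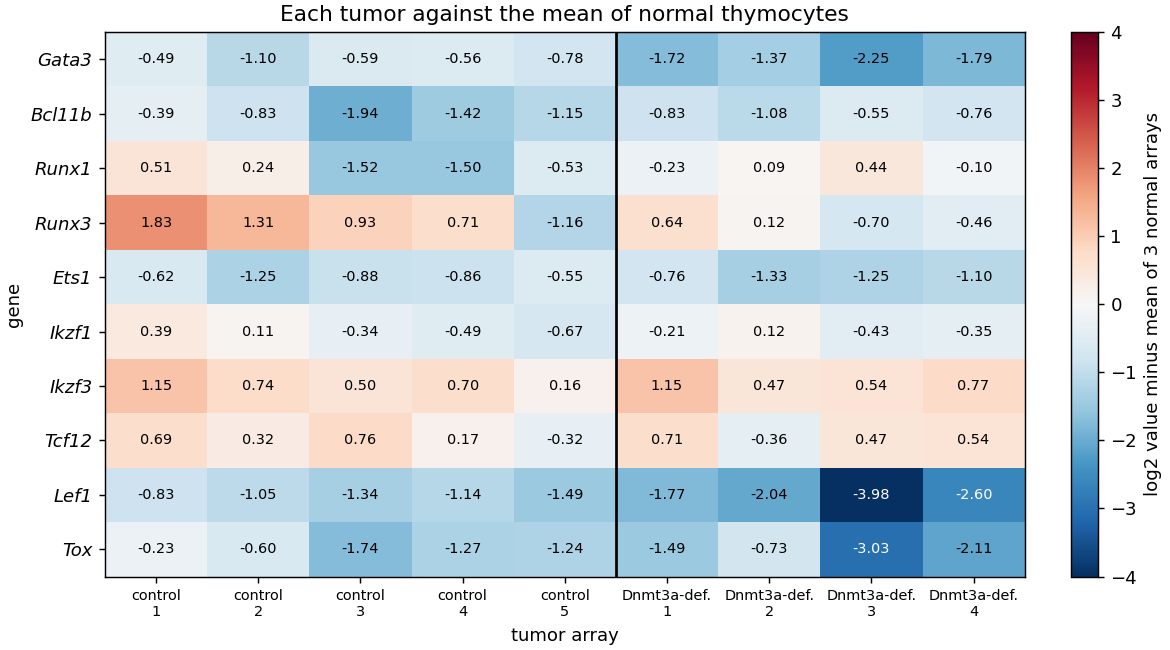
Level of each member in each of the 9 tumors minus the mean of the 3 normal samples, on the log2 scale, as a coloured grid with the value in each cell. Lef1 in deficient tumor 3 is the lowest cell, and the rows of Runx1 and Runx3 change sign among the control tumors.

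The tumors did not lose or keep these factors as one block. Control tumor 1 had the highest level of the 9 tumors in 8 of the 10 members. Deficient tumor 3 was lowest in 3 members (Gata3, Lef1 and Tox), and control tumor 5 in 3 others (Runx3, Ikzf1 and Ikzf3). Control tumor 3 was lowest in Bcl11b and Runx1, and deficient tumor 2 in Ets1 and Tcf12. Deficient tumor 3 also had the lowest mean of the 10 T cell markers of all arrays, at 9.46. Its mean of 13 macrophage markers was 7.74, against 6.92 to 7.36 in the other deficient tumors, 6.61 to 6.84 in normal samples and 6.22 to 7.91 in control tumors, and the part of either in the member values was not tested.

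Across the 9 tumors some members rose and fell together, as a description of samples that share an array platform and, for control tumors 1 and 2 and the deficient tumors, a higher 75th percentile. Bcl11b and Runx1 had r = 0.91, Gata3 and Lef1 r = 0.88, and Lef1 and Tox r = 0.85. Runx3 and Ikzf1 followed with r = 0.73. Gata3 ran the other way from Runx1 (r = -0.51) and Bcl11b (r = -0.48). These values hold the difference between the tumor groups as well as the spread inside them.

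**Figure D4:**
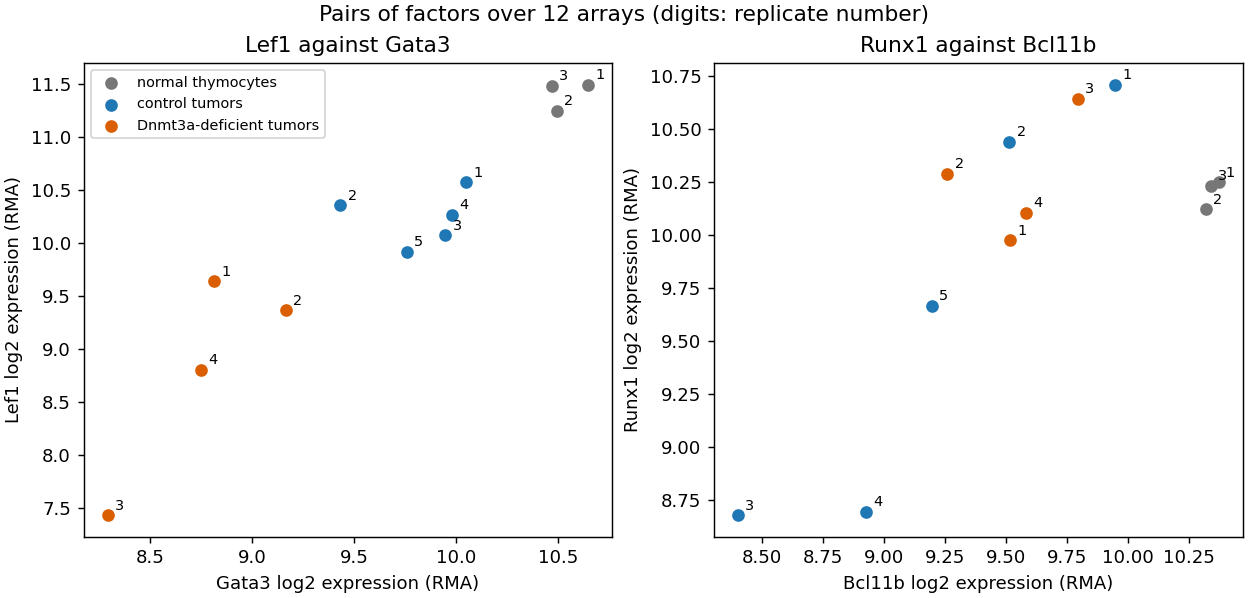
Levels of Lef1 against Gata3 and of Runx1 against Bcl11b on all 12 arrays, as log2 signal on both axes, with 1 point per array coloured by group and its replicate number beside it. The deficient tumors lie below the control tumors on both axes of the first panel, and control tumors 3 and 4 lie at the low end of the second.

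Over all 12 arrays each member had close companions among the other genes, by Pearson correlation as a description. For Gata3 these were Tnk2 (r = 0.97), St6gal1 (0.96) and Laptm5 (0.96), and for Lef1 Vamp1 (0.96), Laptm5 (0.96) and Ndfip2 (0.95). Bcl11b was closest to Mef2d (0.98) and Kdm6b (0.98), Ets1 to Rnf167 (0.98), and Runx1 to the kinase gene Abl1 (0.96). Runx3 was closest to Zmat3 (0.94) and Axin2 (0.93), and Ikzf1 to Zfp36l1 (0.91). For Tox the second closest gene was Lef1 (0.92), after Etv3 (0.94). Ikzf3 was closest to Slc26a2 (0.96) and Tcf12 to Gmcl1 (0.93). Like those over the tumors, these correlations hold the differences between groups as well as the spread inside them.

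Of 43 family relatives and protein partners of the members (other Gata, Runx, Ets, Ikaros and HMG box genes, E and Id proteins, cofactors), 40 were measured. In control tumors 3 were called higher and 10 lower than normal (13.0% and 11.3% of all genes were), with a median difference of -0.22 against -0.08 over all genes. In deficient tumors 6 were higher and 7 lower, shares near the 18.7% and 19.0% of all genes, with a median of -0.20 against -0.10, and the split became 2 and 10 with quantile normalization repeated and 2 and 9 with cyclic loess. In the Ets family Ets2 differed from normal by -1.88 in control and -1.62 in deficient tumors (adjusted p = 0.00296 and 0.00683; -1.07 in control tumors without tumors 3, 4 and 5), and Gabpa by 1.77 and 2.02 (adjusted p = 1.04e-05 and 3.44e-06). The related Elf1, Elf4, Fli1 and Erg were not called against normal in either group. Id2, an inhibitor of E proteins, was lower in control tumors (-1.45, adjusted p = 0.0413), a call that ended without control tumors 3, 4 and 5 (-0.85, adjusted p = 0.0645). Ikzf4, an Ikaros relative, differed from normal by -0.77 in control and -1.04 in deficient tumors (adjusted p = 0.00895 and 0.00118), and Tox4, a Tox relative, by -0.93 and -1.56 (adjusted p = 0.0258 and 0.000945). The Ikzf4 means were dim, at 6.86 in normal samples, 6.09 in control tumors and 5.82 in deficient tumors, the tumor means below every array median.

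Between the tumor groups 0.590% of all genes were called higher in deficient tumors and 0.228% lower. Of the 40 relatives 1 was called, Etv6, an Ets repressor that is needed to sustain blood stem cells. It read 7.66, 7.46 and 7.71 in normal samples, 6.86, 7.40, 6.19, 6.02 and 6.32 in control tumors 1 to 5, and 7.98, 7.36, 8.53 and 8.40 in deficient tumors 1 to 4. All control tumors lay below all normal samples, and deficient tumor 2 overlapped control tumor 2. The deficient tumors were higher by 1.51 (SE 0.29, adjusted p = 0.0372), and by 0.94 (adjusted p = 0.261) against control tumors 1 and 2 alone.

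Of 40 other factors of T cell development, 37 were measured. In control tumors 4 were higher and 10 lower (13.0% and 11.3% of all genes were), and in deficient tumors 4 were higher and 13 lower (18.7% and 19.0% of all genes were). The medians were -0.16 and -0.21, and -0.30 and -0.44 with quantile normalization repeated. Satb1, the genome organizer of thymocytes, differed from normal by -2.99 and -2.34 in control and deficient tumors (adjusted p = 0.00228 and 0.00974; -1.79 in control tumors without tumors 3, 4 and 5), and Bach2, a repressor of effector genes, by -1.98 and -2.15 (adjusted p = 6.27e-06 and 2.85e-06). Zbtb16, the factor of innate-like T cells, was higher in control tumors (2.02, adjusted p = 0.0467), which was not called after a second quantile normalization (0.0545) or cyclic loess (0.0635), or without control tumors 1 and 2 (0.0712) or 3, 4 and 5 (0.0948). Notch1, the receptor that starts the T program, was the 1 gene of these 37 called between the tumor groups (0.590% of all genes were higher and 0.228% lower). It was higher in deficient tumors by 0.98 (adjusted p = 0.0477), and not called after a second quantile normalization (0.109), cyclic loess (0.0923) or without control tumors 3, 4 and 5 (0.25).

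Of 24 factors and receptors of blood progenitors and of T-cell leukemia, such as Spi1, Tal1, Kit and Tlx1, 1 was higher and 3 were lower in control tumors and 1 was higher and 4 were lower in deficient tumors. The shares called lower are near the 11.3% and 19.0% of all genes. Those called higher are below the 13.0% and 18.7% of all genes. The one called higher in control tumors was Lmo2 (2.04, adjusted p = 0.0158), and without control tumors 3, 4 and 5 it was at 0.82 (adjusted p = 0.0556). In deficient tumors it read 7.61, 6.65, 7.04 and 7.72, around the normal 7.36, 6.92 and 7.47, with a difference from control tumors of -2.04 (adjusted p = 0.0772) that shrank to -0.82 (adjusted p = 0.32) against control tumors 1 and 2. Mycn and Kit were lower in both tumor groups (Mycn -1.10 and -1.27, adjusted p = 0.000967 and 0.000316; Kit -0.69 and -0.92, adjusted p = 0.0243 and 0.00434), with Kit in control tumors not called after cyclic loess (0.0704) or without control tumors 1 and 2 (0.0907). The median of the list was -0.10 in control tumors, where that of all genes was -0.08, and turned to 0.07 with cyclic loess. In deficient tumors it was -0.39, against -0.10 over all genes, and -0.14 with cyclic loess.

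Of 28 genes of the T cell program that these factors are known to act on, 26 were measured, and 13 were lower and 0 higher in control tumors (11.3% and 13.0% of all genes were), with a median of -1.01, or -0.62 without control tumors 3, 4 and 5. In deficient tumors 15 were lower and 0 higher (19.0% and 18.7% of all genes were), with a median of -1.09. Rag1, which cuts antigen receptor genes, and Dntt, which adds bases at their joins, fell the furthest in control tumors (-3.98 and -4.79, adjusted p = 0.00904 and 0.00125; without control tumors 3, 4 and 5 Rag1 was at -2.24, adjusted p = 0.0611), and Rag1 and Ccr9, a thymus homing receptor, in deficient tumors (-4.28 and -4.17, adjusted p = 0.00531 and 0.00156). Cd27, a costimulatory receptor, was lower in deficient than in control tumors (difference -1.30, SE 0.27, adjusted p = 0.0477), and 25 of 26 were not called. Of all genes 0.228% were lower and 0.590% higher in that comparison. With control tumors 1 and 2 left out, 6 of the 26 were higher and 5 lower in deficient tumors, where 16.1% of all genes were higher and 9.24% lower.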

How the data were processed

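Total RNA of 12 thymus samples was extracted with Trizol, repurified, labelled with biotin and hybridised to single-channel arrays, per the labels' protocols. The authors deposited log2 signals per probe set. The submitters' processing notes name RMA and Affymetrix Expression Console, with no version given. RMA brings arrays to like distributions, yet the 75th percentiles of the deposited log2 values differed, and the values were used without further scaling.

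Of 23858 probe sets, 20870 had 1 gene symbol, 1453 several and 1535 none. The brightest single-symbol set was kept for each gene, giving 19309 genes, with no filter on dim genes. The array number, and no read depth, limits precision.

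Groups and replicate numbers came from the sample titles. In limma 3.58.1 (R 4.3.3), 1 model with 3 group means was fitted to 12 arrays (9 residual and 4.17 prior degrees of freedom). Tests were two-sided, adjusted by Benjamini-Hochberg over all genes, with differences given as first group minus second. An exact permutation test over the 9 tumors was added for single members. The steps were tested on simulated data. Alternatives covered scaling, a filter on dim genes, the samples fitted, the variance model, array weights and each array left out. The members and lists were chosen with earlier results of these data known.

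The text names the 10 members, up to 6 called genes of each list with the largest difference per comparison (a part of these is printed), the closest genes of each member by correlation, and Dnmt3a and Myc. Promoter windows came from RefSeq (GRCm38.p6).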

Additional observations from a re-analysis of the deposited data

Results flagged for a closer look

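Gata3 is singled out because the 2 tumor groups differ in their change from the same normal samples. The control tumors lay 0.70 log2 units lower than normal thymocytes on average and the deficient tumors 1.78 lower, and the test of the difference itself gave -1.08 (SE 0.18, limma adjusted p = 0.0197). All 4 deficient tumors were below all 5 control tumors.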

How the results depend on the processing

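Of 690 member values under 23 alternatives (30 differences each), 600 kept their direction and their side of the threshold, 41 lost a call, 16 gained one and 33 changed sign. Differences that changed sign were not called in the main fit. Of these, Runx1 and Bcl11b between the tumor groups and Runx1 and Ikzf1 in control tumors were called under other alternatives. The calls of Gata3, Ets1, Lef1 and Tox in deficient tumors against normal thymocytes, and of Bcl11b and Ets1 in control tumors, held under every alternative.

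Counts of members changed as follows, and the share of all genes called moved with the setting too. Where no share or number of all genes is given here or with the replicate block, a count cannot be set against all genes. With 1 array left out, members lower in control tumors than normal numbered 2 to 4 and higher 0 to 2, in deficient tumors 4 to 5 lower and 0 to 1 higher, and between the tumor groups 0 to 2 lower and 0 higher. The count called higher was 0 in both tumor groups after a second quantile normalization or cyclic loess, and 0 in control tumors with the 2 groups fitted alone. After the second quantile normalization 2341 of all 19309 genes were higher in control tumors and 3093 in deficient tumors. After cyclic loess these numbers were 2450 and 3297. Fitting the tumor groups alone gave 0 members lower in deficient than in control tumors, and array weights gave 2 lower (Gata3 and Lef1) and 1 higher (Runx1). Without control tumors 1 and 2, which was chosen after seeing the data, control tumors had 7 members lower and 0 higher (12.5% and 12.9% of all genes were). Deficient against control tumors then had 2 lower and 2 higher (9.24% and 16.1% of all genes were). Without control tumors 3, 4 and 5, also chosen after seeing the data, 2 members were higher in control tumors (Runx3 and Ikzf3) and 0 were lower in deficient than in control tumors.

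Deviations of same-numbered samples from their group means correlated from -0.13 to 0.34. The highest value was that of control tumor 1 with deficient tumor 1, and the next was 0.09. Samples with different numbers were not compared, so the range cannot show whether the replicate numbers of the titles mark pairs. With the replicate number as a block, 2 members were lower in control tumors (Bcl11b and Ets1) and 2 higher (Runx3 and Ikzf3), Gata3 between the tumor groups was at -1.10 (adjusted p = 0.0614), Runx3 at -1.30 (0.0385), Ikzf1 in control tumors turned to 0.009, Runx3 in deficient tumors to 0.041, and between the tumor groups Ikzf3 to -0.040 and Tcf12 to -0.15.

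Other changes of sign were these. Without control tumors 3, 4 and 5, control tumors differed from normal by 0.37 in Runx1 and 0.25 in Ikzf1, and the tumor groups by -0.19 in Bcl11b, -0.32 in Runx1, -0.21 in Ikzf3 and -0.17 in Tcf12. Runx1 in deficient tumors was -0.13 after a second quantile normalization, -0.27 after cyclic loess and, with 1 array left out, between -0.077 (without deficient tumor 3) and 0.145. Runx3 in deficient tumors lay between -0.347 and 0.10 with 1 array left out, above 0 without deficient tumor 3 or 4. Between the tumor groups Ikzf1 was 0.044 after median centring, 0.058 with array weights, 0.28 without control tumors 1 and 2, and 0.03 to 0.13 without control tumor 1 or 2 or deficient tumor 3 or 4. Ikzf3 was -0.014 after a second quantile normalization, -0.046 after cyclic loess, and between -0.057 and 0.207 with 1 array left out, below 0 without deficient tumor 1 or control tumor 5. Tcf12 was -0.10 and -0.12 after the same scalings, and -0.15 to -0.02 without control tumor 4 or 5 or deficient tumor 1, 3 or 4. The causes were not tested. Small groups limit these comparisons, and signal over background is not given.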
